A study of Homo sapiens with 6 samples.

Results

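The autophagy machinery and its cargo receptors were described as 35 human genes in SW872 liposarcoma cells with and without Apatinib. The members were taken by name, as the rows of the count table whose gene name was one of 35 listed symbols. The matching rule used no measured value, although the list was drawn up with earlier results of these data known. Each symbol matched a row, giving 35 of the 57773 genes in the table, and all 35 were among the 16290 genes with enough counts to be tested. By role they comprised 4 genes of the initiation complex, 4 of the PI3K complex and its regulators, 7 of membrane supply and lipid transfer, 6 conjugation enzymes, 4 ATG4 proteases, 5 ATG8 proteins and 5 cargo receptors.

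Autophagy encloses cytoplasm in a double membrane, the autophagosome, and delivers it to the lysosome for breakdown. The ULK1 complex starts the process, the PI3K complex marks the membrane with a phosphorylated lipid, and ATG9, ATG2 and WIPI proteins bring in lipid. The ATG conjugation enzymes then attach ATG8 proteins (the LC3 and GABARAP families) to the membrane, where cargo receptors such as p62, the product of SQSTM1, bind them together with ubiquitinated cargo. ATG8 proteins and receptors are themselves consumed in the lysosome, and mRNA levels do not measure that flux.

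RNA was sequenced from SW872, an established human liposarcoma line. The Apatinib group had 3 replicates exposed to 18 μM Apatinib, an inhibitor of the VEGFR2 kinase, for 24 h, and the control group had 3 replicates of the same line whose treatment label is none. The free-text protocol attached to every replicate, controls included, describes Apatinib exposure, and the groups follow the treatment label and the title. A vehicle is not named in the labels, 1 dose and 1 time were sequenced, and 1 cell line stands for the tumour. The deposited counts were used, and with them FPKM, in which the fragments of a gene are divided by its transcript length and by the size of the library.

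Total counts ranged from 17043314 to 22067558 per replicate. Mesenchymal marker genes were abundant (summed CPM, that is counts scaled to library size, 6720 to 8090 with Apatinib and 5530 to 5710 in controls), with COL3A1 called higher. Epithelial markers summed to 125 to 158 CPM against 95.2 to 111, nearly all of it from KRT18 and KRT8, with KRT8 called higher. The other epithelial markers did not go with them. EPCAM had 1 to 7 counts and CDH1 0 to 2, and CLDN4 was not called (log2 fold change -0.16). Endothelial markers summed to 14.9 to 16.8 CPM against 13.5 to 15.6, with VWF called higher and CDH5 lower. Leukocyte markers, with PTPRC and CD3E at 3 counts or fewer in every replicate, summed to 2.75 to 4.01 CPM against 4.50 to 5.44, and CD14, the one marker of the 4 with enough counts to be tested, was not called (log2 fold change -0.53, edgeR FDR 0.156). The part of these shifts in the results was not tested. The adipocyte genes ADIPOQ, LEP, FABP4 and CEBPA had 3 counts or fewer in every replicate. Of the other adipocyte markers, PLIN1 had 14 to 30 counts and PPARG 859 to 1138 counts, so this list was split. KDR, KIT and RET, which are among the kinases that Apatinib inhibits, summed to at most 0.981 CPM in any replicate and were not tested. Control replicates 1 and 2 were much closer to each other than other replicates of the same group (mean chi-square per gene 2.27, against 18.2 to 44.5). Apatinib replicates 1 and 2 were farther apart (44.5) than Apatinib replicate 3 was from any control (26.5 to 35.9), and control replicate 3 lay nearest of the controls to the Apatinib mean in 52.2% of all genes tested and in 18 of the 35 members. In bulk RNA such as this, fewer cells that use a gene and less of its RNA per cell cannot be told apart.

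After Apatinib, SQSTM1, MAP1LC3A, WIPI1 and GABARAPL1 rose and ATG2B fell, while most of the core machinery did not pass the test. Of these genes only SQSTM1 passed under every alternative fit, and the fall of ATG2B was lost in 9 of 15. A gene was called at an FDR under 0.05 (Benjamini-Hochberg over all genes tested in edgeR's quasi-likelihood test) together with a log2 fold change above 0.5 in size. By that rule 5 of the 35 members were called, and 11.5% of all genes tested were called. In the upward direction 4 of 35 were called beside 5.97% of all genes, and in the downward direction 1 of 35 beside 5.48%. These counts are small, and no test was made of them against all genes. A further member, OPTN, passed the FDR limit alone, which makes 6 of 35 beside 12.9% of all genes. The log2 fold changes ran from -0.71 for RB1CC1 to 0.86 for SQSTM1, with 23 members above 0 and 12 below. Their median was 0.08, and that of all genes tested was 0.00. At an unadjusted p under 0.05 there were 12 of 35 members and 30.6% of all genes. The groups did not overlap for 13 members (33.2% of all genes), of which 11 were higher with Apatinib (17.5% of all genes) and 2 lower (15.7%). DESeq2 called 4 members higher and 2 lower (14.2% of its genes in either direction), limma on log2(FPKM + 1) 4 higher and none lower (4.63%), and edgeR with control replicates 1 and 2 summed 1 higher and none lower (1.75%). In edgeR without control replicate 1 or control replicate 2, 1 member was called higher and 0 lower, while 1.65% and 1.8% of all genes were called. Without control replicate 3 there were 5 higher and 4 lower, beside 15.5% of all genes. Without Apatinib replicate 1 or 2 there were 3 higher and 0 lower (4.73% and 8.91% of all genes), and without Apatinib replicate 3 there were 6 higher and 0 lower (12.1%).

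**Figure D1:**
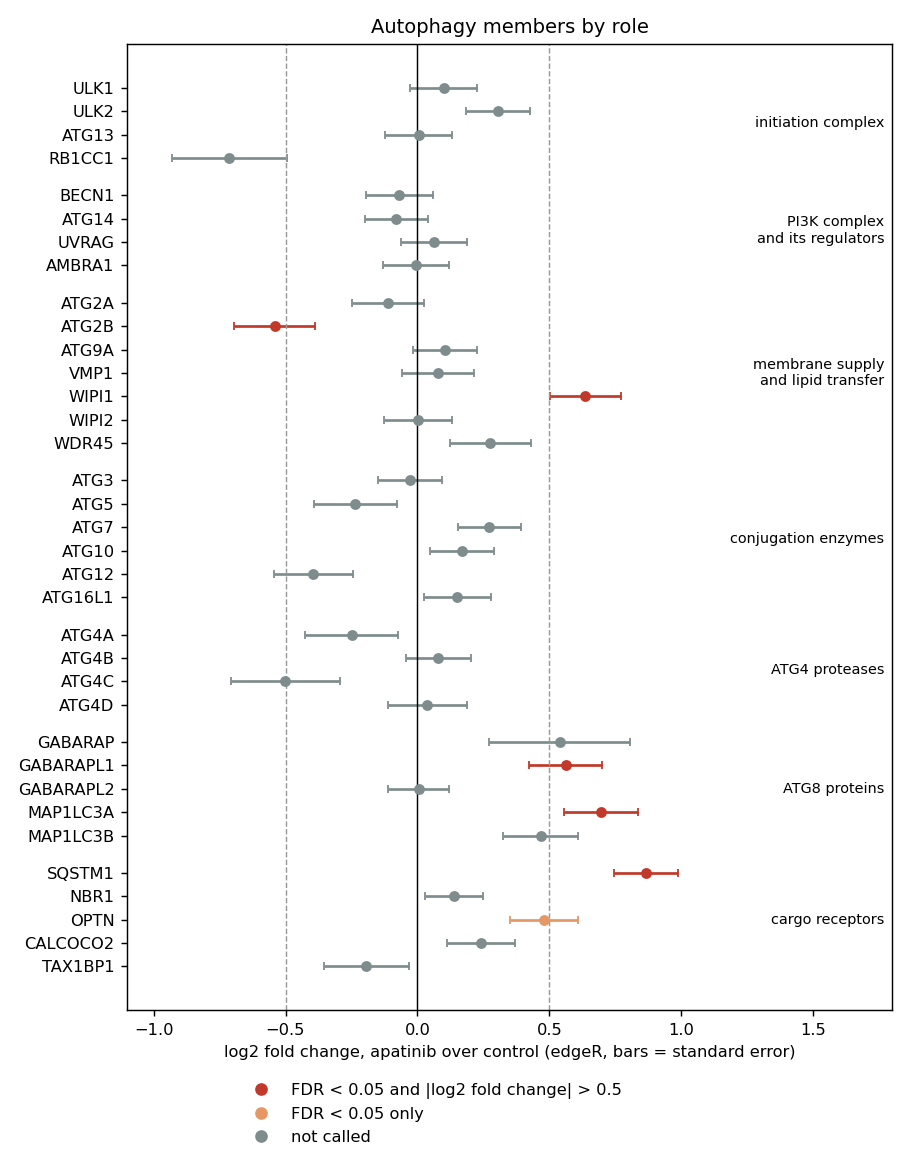
Log2 fold change of each of the 35 members (x axis, Apatinib over control, edgeR fit on 3 replicates a group), ordered by role on the y axis. Points are estimates, bars are standard errors, dashed lines mark the fold limit of 0.5, and colour shows the call. The called points with positive values are SQSTM1 at 0.86, MAP1LC3A at 0.69, WIPI1 at 0.64 and GABARAPL1 at 0.56, and the called point with a negative value is ATG2B at -0.54.

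The cargo receptors held the member with the largest fold change. SQSTM1 encodes p62, which binds ubiquitin chains and LC3 and also KEAP1, the inhibitor of NRF2. Its level in replicates 1 to 3 was 239, 240 and 204 CPM with Apatinib, against 121, 120 and 135 CPM without. Every Apatinib replicate lay above every control. The means were 228 ± 20.8 and 125 ± 8.47 CPM (SD), a 1.82-fold rise (log2 fold change 0.86, SE 0.12, edgeR FDR 0.00375). SQSTM1 was the only member called under each of the 15 alternatives to the edgeR fit that were run, with FDR from 3.7e-08 to 0.0397. In the GENCODE 29 annotation 22.04% of its exon bases overlap exons of MRNIP or MGAT4B on the opposite strand, and whether reads were counted by strand is not given in the sources used here.

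OPTN encodes optineurin, a receptor for ubiquitinated bacteria and damaged mitochondria. Its CPM was 77.6, 97.5 and 77.4 with Apatinib and 62.2, 58.3 and 60.6 in controls. The groups did not overlap, and Apatinib replicate 2 was the highest. The log2 fold change of 0.48 (SE 0.13) passed the FDR limit (edgeR FDR 0.0354) and stayed just under the fold limit. It missed the FDR limit without Apatinib replicate 1 (0.0523), Apatinib replicate 2 (0.0591), control replicate 1 (0.135) or control replicate 2 (0.169). It passed both limits without Apatinib replicate 3 (log2 fold change 0.54, FDR 0.0386) and with a correction for GC content (0.53, FDR 0.0104).

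CALCOCO2 encodes NDP52, a receptor that brings the ULK1 complex to cargo. It had 145, 181 and 144 CPM with Apatinib and 143, 129 and 126 CPM in controls (log2 fold change 0.24, edgeR FDR 0.23). NBR1, a large receptor that works with p62, had 215, 226 and 230 CPM against 207, 204 and 198 CPM (log2 fold change 0.14, edgeR FDR 0.421). For both genes the groups did not overlap, yet neither passed the test. TAX1BP1, a receptor that recruits other factors to p62 condensates, had 190, 244 and 238 CPM with Apatinib and 275, 293 and 200 CPM in controls. Here the groups overlapped through control replicate 3, and the test was not passed (log2 fold change -0.19, edgeR FDR 0.448).

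Levels can be compared between genes per length. In the sum of FPKM over the 5 receptors, SQSTM1 made up 48.8%, 43.7% and 40.8% with Apatinib and 30.3%, 29.4% and 36.3% in controls. TAX1BP1 made up 19.0%, 22.0% and 24.1% with Apatinib and 33.6%, 35.5% and 26.7% in controls. The lengths implied by counts over FPKM were 61.8% of the annotated length for SQSTM1 and 93.2% for TAX1BP1, so which of the pair led in control replicate 3 depends on the length used. With either length SQSTM1 led in every Apatinib replicate and TAX1BP1 in control replicates 1 and 2. Within each gene the shares of the groups did not overlap. The summed receptor FPKM was 253, 306 and 264 with Apatinib and 221, 215 and 193 in controls.

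The ATG8 proteins had the highest median log2 fold change of the 7 roles, 0.54, with 2 of 5 called higher beside 5.97% of all genes. The middle value is that of GABARAP, whose counts are uncertain as given further on. MAP1LC3A encodes LC3A, which is attached to the autophagosome membrane. Its CPM was 34.3, 33.0 and 27.6 with Apatinib and 19.6, 18.0 and 21.0 in controls, so the groups were apart. It rose 1.62-fold (log2 fold change 0.69, SE 0.14, edgeR FDR 0.0131). The call was lost without control replicate 1 (FDR 0.0742) or control replicate 2 (FDR 0.0857). It also fell under the fold limit, at a log2 fold change of 0.47 (FDR 0.0183), when GC content was corrected for.

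GABARAPL1 encodes an ATG8 protein of the GABARAP family. It stood at 34.1, 44.3 and 35.2 CPM with Apatinib and at 25.5, 24.9 and 26.5 CPM in controls. No replicate overlapped, and Apatinib replicate 2 was the highest. GABARAPL1 rose 1.48-fold (log2 fold change 0.56, SE 0.14, edgeR FDR 0.0271). Without Apatinib replicate 2 the log2 fold change was 0.44 (FDR 0.0473), under the fold limit, and without control replicate 1 or 2 the FDR was 0.122 or 0.132.

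MAP1LC3B encodes LC3B, the ATG8 protein most used as a marker of autophagosomes. Its CPM was 153, 195 and 144 with Apatinib and 113, 110 and 132 in controls. The groups did not overlap, but the log2 fold change of 0.47 missed both limits (SE 0.14, edgeR FDR 0.0519). It passed both without Apatinib replicate 3 (log2 fold change 0.56, FDR 0.0433) or control replicate 3 (0.56, FDR 0.0306). GABARAPL2, or GATE-16, was close to level, at 72.7, 68.9 and 67.0 CPM with Apatinib and 64.5, 69.6 and 73.8 CPM in controls (log2 fold change 0.00, edgeR FDR 0.984), and its sign depended on the scaling.

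GABARAP itself was uncertain, because counts and FPKM did not match. It had 55, 45 and 51 counts with Apatinib and 46, 28 and 39 counts in controls, which overlapped (log2 fold change 0.54, SE 0.27, edgeR FDR 0.199). Its FPKM, 104, 81.2 and 96.7 with Apatinib and 85.0, 63.2 and 73.0 in controls, was the highest of all members on the control mean. The transcript length implied by counts over FPKM was 1.75% of the annotated length, whereas the median was 122% over 13023 genes with a mean FPKM above 1, of which 13 lay at or below GABARAP. In GENCODE 29, 30.49% of its exon bases overlap AC120057.2, a gene on the same strand. The files list that gene, under the name CTD-2545G14.7, at 0 counts and 0 FPKM in every replicate. The part of this overlap in the low counts was not tested.

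Summed over the ATG8 proteins without GABARAP, FPKM was 122, 145 and 120 with Apatinib and 97.7, 95.7 and 107 in controls. With GABARAP the sums were 227, 226 and 216 against 183, 159 and 180. In both versions every Apatinib replicate was above every control. The share of GABARAPL2 in the full sum was 20.9% to 22.0% with Apatinib and 24.9% to 28.3% in controls.

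**Figure D2:**
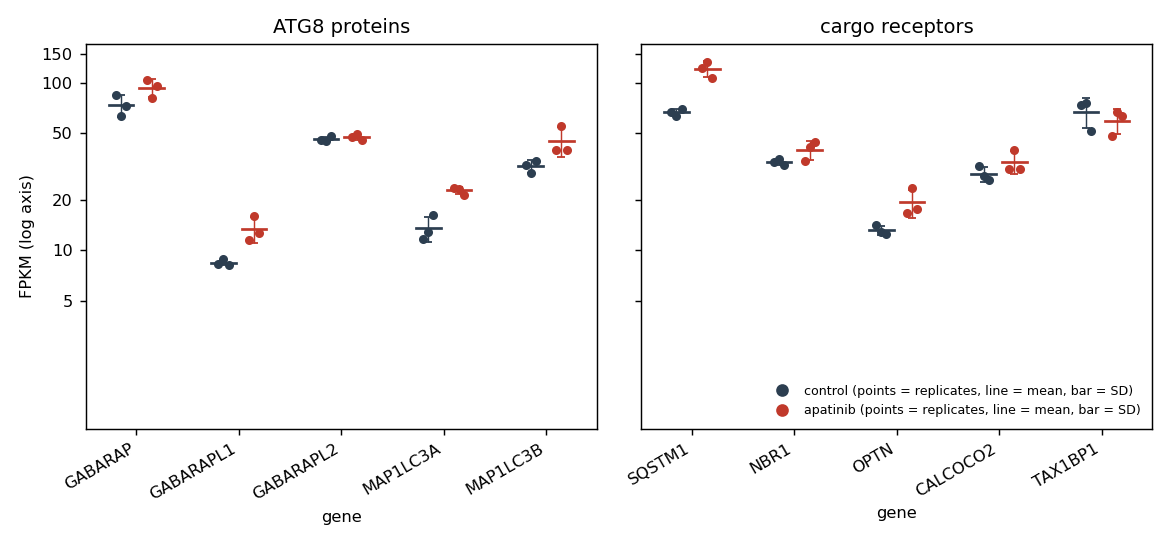
FPKM (y axis, log scale) of the 5 ATG8 proteins and the 5 cargo receptors in each group. Points are the 3 replicates, lines the mean and bars the SD. SQSTM1 shows the widest gap between the groups among the receptors, and MAP1LC3A and GABARAPL1 are apart with no overlap, whereas GABARAPL2 and TAX1BP1 overlap.

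Promoters of the members were searched because several members moved in one direction and E-box, ATF and NRF2 elements are the textbook regulatory sites of this pathway. RefSeq windows (GRCh38.p14) of 250 bases before to 50 after the gene start were found for 31 of the 35 members, in 40 windows. ATG4D, MAP1LC3A, RB1CC1 and UVRAG had none. Both strands were searched for the E-box CACGTG and for the longer E-box of TFEB targets, TCACGTGA, which contains it. The AP-1 motif was TGANTCA. The antioxidant element of NRF2 was TGACNNNGC, the element of ATF4 and CHOP TGATGNAA and the CRE TGACGTCA. Stretches of 30 bases are shown for the called ATG8 gene with a match, for LC3B and for an E-box gene without a call, with the motif in capitals.
GABARAPL1, CRE, chr12:10212836-10212865, plus strand: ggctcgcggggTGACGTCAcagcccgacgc
MAP1LC3B, antioxidant element, chr16:87392280-87392309, plus strand: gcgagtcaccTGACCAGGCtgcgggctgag
ATG14, E-box, chr14:55411834-55411863, minus strand: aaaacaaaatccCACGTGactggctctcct
The CRE of GABARAPL1 starts 30 bases before the gene start, the element of MAP1LC3B 46 bases before and the E-box of ATG14 21 bases before.

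Matches were few. CACGTG was found for ATG14 and ATG3, neither of them called, and in 7.26% of all 35116 promoter windows. The longer TCACGTGA was found for ATG3 (0.98% of all windows). TGACGTCA was found for GABARAPL1 (1.85%) and TGACNNNGC for MAP1LC3B and CALCOCO2 (13.3%). TGANTCA (7.71%) and TGATGNAA (3.62%) were found for WDR45. SQSTM1 and WIPI1 held none of these letters in their windows, which says nothing of elements elsewhere.

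Of the 7 genes of membrane supply and lipid transfer, 1 rose, 1 fell (beside 5.97% and 5.48% of all genes) and 5 were not called. WIPI1 encodes a propeller protein that reads the lipid mark of the PI3K complex. It stood at 39.8, 33.8 and 33.4 CPM with Apatinib and at 22.5, 21.4 and 25.0 CPM in controls. The groups were well apart, and WIPI1 rose 1.55-fold (log2 fold change 0.64, SE 0.14, edgeR FDR 0.0152). The FDR was 0.0506 without Apatinib replicate 1, 0.0914 without control replicate 1 and 0.0987 without control replicate 2. In GENCODE 29, 28.07% of its exon bases overlap other genes on the opposite strand, among them ARSG.

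ATG2B encodes a tube that carries lipid to the growing membrane. Its CPM was 54.5, 67.1 and 67.1 with Apatinib and 103, 99.5 and 72.6 in controls. The groups did not overlap, and the lowest of the controls was replicate 3. ATG2B fell 0.54 on the log2 scale (log2 fold change -0.54, SE 0.16, edgeR FDR 0.0425). The call was lost in 9 of 15 alternatives. Among them were the omission of any one of Apatinib replicates 1 (FDR 0.127), 2 (0.0562) or 3 (0.0616) or of control replicates 1 (0.191) or 2 (0.183). Others were control replicates 1 and 2 summed (0.182) and limma on log2(FPKM + 1) (0.146). The rest of the role, ATG2A, ATG9A, VMP1, WIPI2 and WDR45, had log2 fold changes from -0.11 to 0.28, and WDR45 and ATG9A share exon bases with same-strand genes (13.88% with PRAF2 and 38.8% with AC068946.2).

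None of the 4 genes of the initiation complex passed the test, beside 11.5% of all genes, and 4 genes are too few to set against that share. RB1CC1 encodes FIP200, the scaffold of the ULK1 complex. It had 62.8, 73.2 and 73.2 CPM with Apatinib and 132, 142 and 69.9 CPM in controls. Control replicates 1 and 2 were high, and control replicate 3 lay among the Apatinib replicates. The log2 fold change of -0.71 (SE 0.22) therefore had an edgeR FDR of 0.0527, and without control replicate 3 it was -0.97 (FDR 0.00105). RB1CC1 was also called lower by DESeq2 (-0.71, FDR 0.00907). ULK2, a kinase related to ULK1, had 41.4, 38.6 and 40.8 CPM with Apatinib and 34.5, 32.0 and 31.2 CPM in controls, which did not overlap (log2 fold change 0.30, edgeR FDR 0.111). ULK1, the initiating kinase, and ATG13, its binding partner, had log2 fold changes of 0.10 and 0.00.

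The 4 members of the PI3K complex and its regulators had log2 fold changes of -0.08 to 0.06, the narrowest range of the 7 roles. The range leaves out the lipid kinase PIK3C3 (-0.49) and its partner PIK3R4 (-0.39), which were on a list of related genes and not among the members. BECN1 encodes Beclin 1, the regulatory core of the complex, and ATG14 the subunit that directs it to autophagy. BECN1 had 43.5, 41.8 and 37.6 CPM with Apatinib and 40.8, 40.9 and 47.2 CPM in controls (log2 fold change -0.07, edgeR FDR 0.754). ATG14 had 33.9, 33.0 and 36.6 CPM against 36.4, 35.8 and 37.2 CPM (log2 fold change -0.08, edgeR FDR 0.69). UVRAG, the subunit of the endosomal form, and AMBRA1, a regulator of Beclin 1, had log2 fold changes of 0.06 and -0.01. All 4 genes overlapped between the groups, while 33.2% of all genes did not.

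Among the 6 conjugation enzymes none passed the test, beside 11.5% of all genes, which is too few genes to set against that share. On each side of 0 lay 3 of them. ATG12 encodes the ubiquitin-like protein that is joined to ATG5. Its CPM was 71.3, 89.6 and 89.6 with Apatinib and 121, 118 and 89.9 in controls, so the groups were apart only by the small step between 89.6 and 89.9. The log2 fold change was -0.39 (edgeR FDR 0.101), and -0.52 (FDR 0.0301) without control replicate 3. ATG7, the activating enzyme of the cascade, had 37.8, 38.1 and 35.4 CPM with Apatinib and 31.0, 29.7 and 31.5 CPM in controls, with no overlap (log2 fold change 0.27, edgeR FDR 0.148). ATG3, ATG5, ATG10 and ATG16L1 ran from -0.23 for ATG5 to 0.17 for ATG10.

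The ATG4 proteases trim ATG8 proteins before they are attached and free them afterwards. ATG4C had 9.54, 10.2 and 11.0 CPM with Apatinib and 16.0, 17.5 and 10.0 CPM in controls. Control replicate 3 again lay among the Apatinib replicates, and the log2 fold change of -0.50 had an edgeR FDR of 0.126, or 0.0147 at -0.71 without that control. ATG4A had 8.20, 7.34 and 10.5 CPM against 9.99, 10.9 and 10.1 CPM (log2 fold change -0.25, edgeR FDR 0.369). ATG4B and ATG4D had log2 fold changes of 0.08 and 0.04.

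The members with log2 fold changes below -0.3 (RB1CC1, ATG2B, ATG12 and ATG4C) differed in transcript features from those called higher. They were grouped after their values had been seen and were not tested. Their transcripts in GENCODE 29 had a median GC content of 37.5% (34.8% to 44.2%) and a median length of 5484 bases (2938 to 13684). The 4 members called higher had 53.2% (47.8% to 64.5%) and 2063 bases (1574 to 2986), so the sets were apart in GC content and overlapped in length. The called set had to pass the FDR limit as well, whereas the lower set was cut on fold alone. Cut on fold alone, the 8 members above 0.3 had 48.5% (44.8% to 64.5%) and 2491 bases (1574 to 6010), nearer to the members at large. The medians over all members were 47.8% and 3405 bases. Control replicate 3 was lower than the mean of control replicates 1 and 2 in each of RB1CC1, ATG2B, ATG12 and ATG4C, with log2 differences of -0.97 to -0.41 (median -0.61). In the members called higher the same difference was between 0.07 and 0.19, and in the 8 members above 0.3 between -0.23 and 0.25 (median 0.12). Across members, log2 fold change and GC content had a Pearson's r of 0.44 (35 genes), beside 0.39 over 15819 genes tested, a description across genes that share the same 6 libraries. With a correction for GC content, the log2 fold changes were -0.47 for ATG2B (FDR 0.0263), -0.29 for RB1CC1 (FDR 0.183), -0.01 for ATG12 and -0.03 for ATG4C, so that no member was called lower and 4 were called higher (8.63% of all genes in either direction). SQSTM1 kept 0.70 (FDR 0.00279), WIPI1 0.60 (FDR 0.0106) and GABARAPL1 0.51 (FDR 0.0188).

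**Figure D3:**
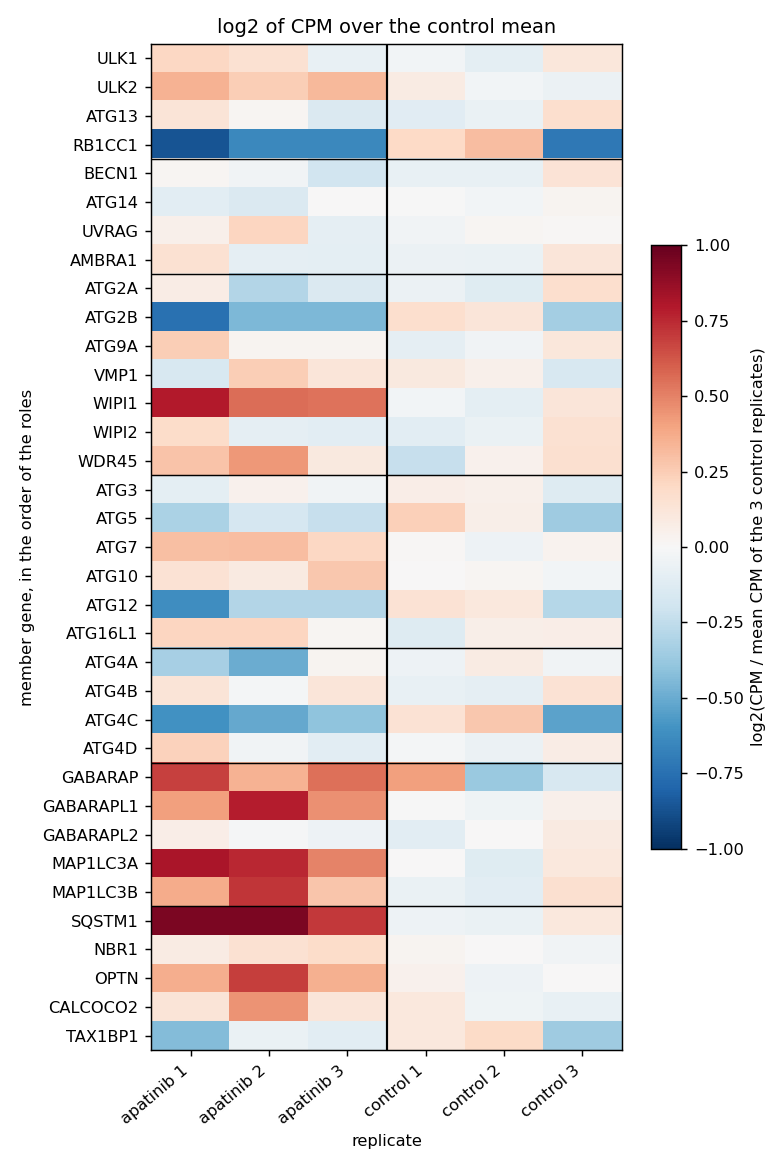
Log2 of each replicate's CPM over the mean of the 3 controls (colour scale, -1 to 1) for the 35 members (rows, in the order of the roles) in the 6 replicates (columns). SQSTM1, MAP1LC3A and WIPI1 are red in all 3 Apatinib columns, and RB1CC1, ATG2B, ATG12 and ATG4C are blue in the Apatinib columns and also in control replicate 3.

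Levels of related genes were also set against each other. The ratios of 8 pairs were chosen after the values had been seen. The log2 ratio of WIPI1 to WIPI2 was -2.06, -2.02 and -2.02 with Apatinib and -2.60, -2.71 and -2.70 in controls, a difference of 0.64 (SE 0.04). The ratio of GABARAPL1 to GABARAPL2 differed by 0.55 (SE 0.14), and that of SQSTM1 to NBR1 by 0.72 (SE 0.13). In these 3 of 8 pairs the groups did not overlap. Each of the 3 sets a called member against one not called, so the ratios are no separate support for those calls. The exact two-sided permutation test gave p = 0.1 for them (0.267 adjusted over the 8 pairs by Benjamini-Hochberg). That is the smallest p that 3 against 3 replicates allow, so the test could not reach 0.05 and decides nothing about any pair. In the other 5 (ULK2 to ULK1, ATG2B to ATG2A, ATG4A to ATG4B, ATG4C to ATG4D and MAP1LC3A to MAP1LC3B) they overlapped, with differences from -0.50 to 0.23.

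In control cells, members spanned a range of levels per length. After GABARAP, whose FPKM is uncertain, TAX1BP1 (67.4 ± 13.8 FPKM) and SQSTM1 (66.9 ± 3.39) came next and did not differ beyond their spread. The FPKM of SQSTM1 is high for its counts at the annotated length (implied length 61.8%, the lowest of 33 members other than GABARAP and WDR45, against a median of 125%), and the implied lengths of VMP1 and GABARAPL2 were 160% and 148%, so the places of these genes hold on the deposited FPKM alone. VMP1, a membrane protein of autophagosome formation, followed at 52.8 ± 8.02 and GABARAPL2 at 46.2 ± 1.73, again within their spread. MAP1LC3B stood at 31.9 ± 2.71 FPKM, MAP1LC3A at 13.6 ± 2.32 and GABARAPL1 at 8.45 ± 0.33. The lowest were ULK2 (4.23 ± 0.37), ATG4C (3.49 ± 1.00) and ATG4A (3.08 ± 0.10).

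The rest of the pathway was read from 6 lists of related genes, 83 in all, of which 80 were tested. Of these, 8 were called higher and 4 lower (5.97% and 5.48% of all genes tested), with a median log2 fold change of 0.17. Without control replicate 1 or control replicate 2 the edgeR fit called 0 of them in either direction, beside 1.65% and 1.8% of all genes. The 20 lysosomal genes had 4 called higher (5.97% of all genes) and none lower (5.48%), a median of 0.30, and 2 that passed the FDR limit alone. CTSD, the protease cathepsin D, had 189, 152 and 132 CPM with Apatinib and 88.9, 91.3 and 114 CPM in controls, and rose by a log2 fold change of 0.68 (edgeR FDR 0.0197). PSAP, the precursor of saposins, had 920, 868 and 745 CPM against 519, 507 and 600 CPM and rose by 0.64 (FDR 0.0135). CTSL, the protease cathepsin L, rose by 0.55, and GRN, progranulin, by 0.51. With the correction for GC content PSAP was called at 0.52, whereas CTSD (0.46), CTSL (0.45) and GRN (0.32) fell under the fold limit and LAMP2, a lysosomal membrane protein, was called higher. Without control replicate 1 or 2 none of the 4 was called (FDR 0.0891 to 0.146). CTSD was also lost without Apatinib replicate 1 (FDR 0.0599), GRN without Apatinib replicate 1 (0.43, FDR 0.075) and CTSL without Apatinib replicate 2 (0.49, under the fold limit). TPP1 and NPC1, named after their values were seen, had log2 fold changes of 0.39 and 0.44 with FDR under the limit.

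The 13 transcriptional regulators had a median of 0.42, the highest of the 6 lists, which is the value of ZKSCAN3 (edgeR FDR 0.0954). In the edgeR fit 1 was called higher, beside 5.97% of all genes, and none lower (5.48%). The log2 fold changes were above 0 for 9 and below 0 for 4. The 4 were NFE2L2, E2F1 (-0.40, FDR 0.105), HIF1A (-0.18) and FOXO3 (-0.06), and E2F1 was called lower with the GC correction. ATF4, the transcription factor of the integrated stress response, had 416, 473 and 366 CPM with Apatinib and 245, 246 and 283 CPM in controls. It rose 1.62-fold (log2 fold change 0.70, edgeR FDR 0.0104), and without control replicate 1 or 2 its FDR was 0.0721 or 0.0711. The MiT/TFE factors, named after their values were seen, did not pass in this fit. The log2 fold change was 0.60 for MITF (edgeR FDR 0.0585), 0.50 for TFEB (FDR 0.177) and 0.48 for TFE3 (FDR 0.0725), and each gene was highest in Apatinib replicate 2. MITF was called higher with DESeq2, with no filter on low counts, without Apatinib replicate 1 and with the correction for GC content. TFE3 was called higher without Apatinib replicate 3 or control replicate 3. CEBPB, named after its values were seen, was at 191, 285 and 127 CPM with Apatinib and 121, 120 and 131 CPM in controls (log2 fold change 0.70, edgeR FDR 0.0623), and was called with DESeq2, with no filter and without Apatinib replicate 3. DDIT3, which encodes CHOP and was likewise named afterwards, was at 16.1, 43.4 and 10.7 CPM against 15.3, 13.3 and 12.6 CPM (log2 fold change 0.77, edgeR FDR 0.205), so the high value was that of Apatinib replicate 2, and it was called with no filter. For NFE2L2, which encodes NRF2, the log2 fold change was -0.45 (edgeR FDR 0.166), and it was called lower without Apatinib replicate 2.

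Among the other core genes, 2 of 13 rose and 1 fell, beside 5.97% and 5.48% of all genes. ATG16L2, a relative of ATG16L1, had 29.5, 28.8 and 34.5 CPM with Apatinib and 21.4, 22.5 and 21.0 CPM in controls (log2 fold change 0.52, edgeR FDR 0.0301). Its call was lost in 10 of 15 alternatives, among them the GC correction (0.31, FDR 0.139) and the omission of any replicate but Apatinib replicate 2 (log2 fold change 0.43 to 0.55, FDR 0.0476 to 0.144). MAP1LC3B2 had 24, 39 and 29 counts against 13, 15 and 16 counts (log2 fold change 1.18, FDR 0.0352), and it is uncertain because it is a near-identical copy of MAP1LC3B with which it can share reads. Its call was lost in 10 of 14 alternatives, among them DESeq2 (FDR 0.0636) and the omission of any one of the 6 replicates (FDR 0.0567 to 0.134). ATG9B, a relative of ATG9A, fell from 1.96, 2.53 and 2.06 CPM in controls to 1.22, 0.847 and 0.859 CPM (log2 fold change -1.16, FDR 0.0297), and its call was lost without Apatinib replicate 2 (FDR 0.0577) or 3 (0.0638) or control replicate 1 (0.0922) or 2 (0.144). PIK3C3, the lipid kinase of the PI3K complex, named after its values were seen, passed the FDR limit alone at -0.49 (FDR 0.0486).

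Of the 14 fusion genes 1 was called higher (5.97% of all genes) and none lower (5.48%). This was VPS16, a subunit of the tethering complex, with 72.0, 58.3 and 60.8 CPM against 44.8, 41.4 and 48.9 CPM (log2 fold change 0.50, edgeR FDR 0.0323). It lay at the fold limit, and its call was lost in 10 of 15 alternatives, among them RLE scaling (0.49), the GC correction (0.34) and the omission of Apatinib replicate 1 (0.41, FDR 0.0963), control replicate 1 (FDR 0.142) or control replicate 2 (FDR 0.174). Among 13 selective receptors 2 fell (5.48% of all genes) and none rose (5.97%). BNIP3, a mitochondrial receptor, had 46.6, 45.2 and 48.0 CPM with Apatinib and 68.0, 68.9 and 70.7 CPM in controls (log2 fold change -0.57, edgeR FDR 0.012). Its groups were apart by a wide margin, and control replicate 3 stood with the other controls, but the call was lost without control replicate 1 (FDR 0.0709) or 2 (0.0762). SEC62, a receptor for endoplasmic reticulum, had 54.4, 65.1 and 65.0 CPM against 112, 112 and 69.1 CPM (log2 fold change -0.67, FDR 0.0357, or -0.23 with the correction for GC content). The SEC62 call was lost without any one replicate other than control replicate 3 (FDR 0.056 to 0.16). BNIP3L, also a mitochondrial receptor and named after its values were seen, passed the FDR limit alone at -0.47 (FDR 0.0387). The list named for kinases upstream of ULK1 also held partner proteins that are not kinases, and TBK1, a kinase that phosphorylates OPTN and p62. Of its 7 tested genes 1 was called lower (5.48% of all genes) and none higher (5.97%). That gene, TBK1, had 19.4, 19.4 and 26.6 CPM against 36.2, 40.9 and 25.5 CPM (log2 fold change -0.65, edgeR FDR 0.0474). Its groups overlapped through control replicate 3, and with the correction for GC content it was not called (-0.33, FDR 0.115). Nor was it called without Apatinib replicate 1 (FDR 0.133) or 2 (0.105), without control replicate 1 (0.166) or 2 (0.215), or with limma on log2(FPKM + 1) (0.0967).

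**Figure D4:**
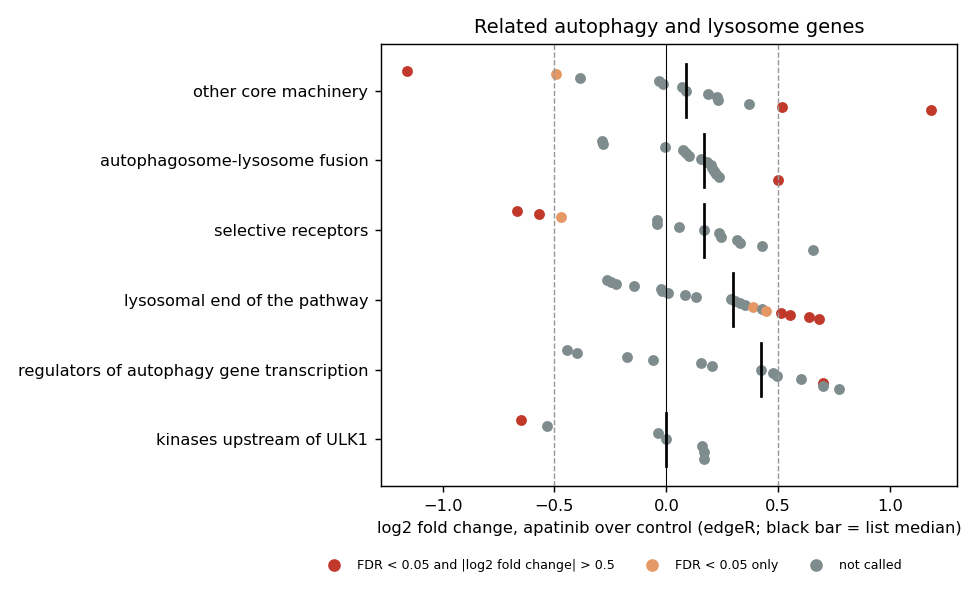
Log2 fold change (x axis, Apatinib over control, edgeR) of the 80 tested genes on 6 lists of related genes (y axis). Each point is a gene, coloured by its call, the black bar is the list median and dashed lines mark the fold limit of 0.5. The medians run from 0.00 for the list named for kinases upstream of ULK1 to 0.30 for the lysosomal genes and 0.42 for the transcriptional regulators.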

How the data were processed

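RNA sequencing of 3 Apatinib-treated and 3 untreated SW872 replicates was analysed, grouped by their labels. The authors deposited raw counts per gene (whole numbers, not normalized) and FPKM values per replicate. The submitters' processing notes name CASAVA, STAR 2.7.1a and hg19. The counting program, annotation and strand setting are not given in the sources used here. In the FPKM values of Apatinib replicate 1, 1 extra column bears the name of a control and was left out. The study's methods describe biological replicates, and the labels do not name separate cultures, so p-values measure the spread between these samples.

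The counts were tested with edgeR 4.0.16 in R 4.3.3, using filterByExpr (16290 genes kept), TMM scaling, the quasi-likelihood F test between the groups with no pairing term, and Benjamini-Hochberg adjustment over all genes tested. CPM values use the TMM factors (0.952 to 1.03). The biological coefficient of variation was 14.9%. Counting error is part of the model. Alternatives were DESeq2 1.42.0, RLE scaling, no filter beyond a total count of 1, at least 10 counts in every replicate, the replicate number as a block, leaving out each replicate, control replicates 1 and 2 summed, FDR alone, and limma 3.58.1 on FPKM values, as log2 with a pseudocount of 1 or 0.1, for genes with a mean FPKM above 0.5. A GC correction (loess of each replicate's deviation in log2 CPM on transcript GC content, span 0.3, for 97.1% of tested genes) was added after the data had been seen, as were the paralogue ratios. Scripts were tested on simulated data.

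The rule for described genes took each member called or with an FDR under the limit, all ATG8 proteins and receptors, and in each other role the 2 members with the smallest p, and from each related list the called genes and the smallest p. The members and lists were chosen with earlier results of these data known, so no set test was made and no p was adjusted over a list alone. Transcript length, GC content and exon overlaps came from GENCODE 29, and promoters from RefSeq. Protein sequences were not used here.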

Additional observations from a re-analysis of the deposited data

How the results depend on the processing

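The calls depended on control replicates 1 and 2. The number of members called higher, 4 in the edgeR fit, was 1 with these controls summed and 1 with limma on log2(FPKM + 0.1), and ran from 1 (without control replicate 1 or 2, SQSTM1 being the gene left) to 6 (without Apatinib replicate 3) when each replicate was left out. Of all genes, 11.5% were called in the edgeR fit, 1.75% with these controls summed, 4.63% with limma on log2(FPKM + 1), 14.2% with DESeq2 and 8.63% with the GC correction. They were 1.65% and 1.8% without control replicate 1 or 2, 15.5% without control replicate 3 and 12.1% without Apatinib replicate 3. No such share was taken for limma on log2(FPKM + 0.1), no filter or the replicate block. The number called lower, 1 in the edgeR fit, was 2 with DESeq2, 2 with no filter on low counts and 2 with the replicate number as a block. It was 0 with the controls summed, 0 with limma on log2(FPKM + 1), 0 with limma on log2(FPKM + 0.1) and 0 with the GC correction, which was chosen after seeing the data. Leaving out a replicate gave 0 (without any Apatinib replicate or control replicate 1 or 2) to 4 (without control replicate 3, namely ATG12, ATG2B, ATG4C and RB1CC1). The cause was not tested.

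Of the related genes, 8 were called higher in the edgeR fit, against 0 with the controls summed, 4 with limma on log2(FPKM + 1), 0 with limma on log2(FPKM + 0.1) and 4 with the GC correction, and 0 (without control replicate 1 or 2) to 10 (without Apatinib replicate 3) when a replicate was left out, with 4 without Apatinib replicate 1. The 4 called lower became 0 with the controls summed, 1 with limma on log2(FPKM + 1) and 0 with limma on log2(FPKM + 0.1), and 0 (without control replicate 1 or 2) to 7 (without control replicate 3) when a replicate was left out, with 2 without Apatinib replicate 1 or 2. The share of all genes called moved as well, from 11.5% in the edgeR fit to 1.75% with the controls summed, 4.63% with limma on log2(FPKM + 1) and 8.63% with the GC correction. It was 4.73% and 8.91% without Apatinib replicate 1 or 2.

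The median log2 fold change of the members stayed between 0.04 and 0.11. GABARAPL2 changed sign, to -0.0005 with RLE scaling, -0.0007 with at least 10 counts in every replicate and -0.0224 with the controls summed, and ran from -0.0498 to 0.0544 when a replicate was left out. BECN1 ran from -0.1109 to 0.0072, the latter without control replicate 3. Of the values for single described genes under these alternatives, 354 kept direction and call, 107 kept the direction and lost the call, and 10 gained it.

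Replicate numbers did not pair the groups (correlation of deviations from the group mean -0.259, 0.0808 and -0.22), and with the replicate number as a block 4 members were called higher and 2 lower, the second being RB1CC1. Among the related genes that block ended the calls of VPS16 (FDR 0.056) and ATG16L2 (FDR 0.0631). It added CEBPB and MITF as higher and PRKAA1 as lower. The 28 to 55 counts of GABARAP limit what can be said of it.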
